A study of Mus musculus with 2 samples.

Results

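Nr4a1, Nr4a2 and Nr4a3 are the 3 genes of the NR4A family of orphan nuclear receptors, and they were taken by name from the 32285 genes counted. All 3 were detected. They were described across the leukocytes of the adrenal gland, with cells assigned to classes by markers other than the 3 genes. CD45+ DAPI- cells were sorted from adrenal glands of 7-week-old C57BL/6 J mice after enzymatic digestion for 30 min at 37 °C, and their RNA was sequenced cell by cell in droplets. Female mice gave 1 library and male mice gave 1 library. The labels name no transgene and no treatment, and how many mice went into a library was not given. No difference between the sexes could therefore be set against the spread between animals, no p-value is given, and every interval below is a 95% interval of counting error only.

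NR4A receptors are transcription factors that act without a known physiological ligand, so that their activity follows mainly from how much of them a cell makes. They are immediate early genes, transcribed within minutes of stimuli such as antigen receptor signals, cAMP-raising hormones, growth factors and stress. In leukocytes, Nr4a1 is best known as the factor needed for nonclassical, patrolling monocytes, and all 3 members are known for restraining activated lymphocytes. In the adrenal gland itself the family is known from steroid-making cortical cells, which the CD45 sort was meant to leave out.

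In the GRCm38 assembly with GENCODE vM21 annotation, Nr4a1 (ENSMUSG00000023034) lies at chr15:101254269-101274795 on the plus strand with 4 annotated transcripts. Nr4a2 (ENSMUSG00000026826) lies at chr2:57106830-57124003 on the minus strand with 6 transcripts, and Nr4a3 (ENSMUSG00000028341) at chr4:48045153-48086447 on the plus strand with 4. No other annotated gene overlapped any of them. The promoters are shown because the family is known as a target of CREB, the factor that answers cAMP. They were read from RefSeq (GRCm38.p6) as the 250 bases before each gene's start, 5′ to 3′ on the gene's strand, and capitals mark the short cAMP response element, TGACG or its reverse complement CGTCA. The Nr4a1 window, chr15:101266596-101266845 (+), lies inside the annotated gene and holds no annotated exon. The Nr4a2 window is chr2:57124004-57124253 (-). Of the Nr4a3 window, chr4:48045055-48045304 (+), the 98 bases before the earliest annotated exon are shown, chr4:48045055-48045152, with 3 of its 4 elements.
Nr4a1: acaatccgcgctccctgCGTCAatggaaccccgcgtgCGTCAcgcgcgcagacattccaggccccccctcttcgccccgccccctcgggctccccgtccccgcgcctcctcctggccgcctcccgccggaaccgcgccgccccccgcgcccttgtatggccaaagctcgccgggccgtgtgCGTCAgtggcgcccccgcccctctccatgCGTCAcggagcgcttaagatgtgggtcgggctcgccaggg
Nr4a2: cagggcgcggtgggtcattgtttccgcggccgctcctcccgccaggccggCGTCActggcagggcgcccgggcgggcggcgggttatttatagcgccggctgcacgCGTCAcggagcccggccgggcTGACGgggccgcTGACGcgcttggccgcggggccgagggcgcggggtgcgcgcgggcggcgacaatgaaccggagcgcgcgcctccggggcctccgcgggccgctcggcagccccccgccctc
Nr4a3: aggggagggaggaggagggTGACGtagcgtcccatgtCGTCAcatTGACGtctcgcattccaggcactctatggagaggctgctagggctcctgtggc
Each of the 3 windows held 4 short elements. Over all 32851 promoter windows of the same length, 17.8% held at least 1 and 0.137% (45 windows) held 4 or more. G and C made up 74.4%, 80.0% and 63.6% of the Nr4a1, Nr4a2 and Nr4a3 windows, and the shares over all windows were not matched for this. The full palindrome TGACGTCA, in which both orientations of the short form overlap, was in none of the 3 windows and in 1.55% of all windows. The site of Egr factors, GCGNGGGCG on either strand, was found 1 time in Nr4a1 and 1 time in Nr4a2 and not in Nr4a3, against 4.70% of all windows. The AP-1 site TGANTCA and the NR4A monomer site AAAGGTCA were in none of the 3 windows (6.75% and 1.34% of all windows). A match is a description of letters and says nothing about binding in these cells.

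The libraries held 16218309 female and 9512670 male unique molecular identifiers (UMIs, each standing for 1 captured mRNA molecule) over 3963 and 2685 barcodes, of which 3693 and 2450 cells were kept. Levels are given as CPM, the UMIs of a gene scaled to a fixed total of UMIs per class and library. Xist was at 1423 CPM in the female and 0.666 CPM in the male library, and the Y-linked Ddx3y at 0 and 77.9 CPM. Clusters were named from marker lists, every name stands for cells that are "like" that type, and the 3 members were held out of the genes used for clustering. The cluster called nonclassical monocytes (94 female and 68 male cells) was led by Ace, Nr4a1, Adgre4, Eno3, Cd300e and Treml4, and that of classical monocytes (204 and 115 cells) by Chil3, Plac8, Ifitm6 and Hp. Macrophages comprised a Lyve1-high cluster, an Aldh1a2-high cluster and 3 clusters kept together as other macrophages. Natural killer (NK) cells comprised an ILC1-like cluster with Xcl1, Itga1 and Cd160 and a conventional cluster with Prf1, Klra4, Klra8 and Eomes, which also had the hemoglobin genes Hbb-bs, Hba-a2 and Hbb-bt among its 10 leading genes.

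Over all cells, Nr4a1 was counted with 656 female and 540 male UMIs, Nr4a2 with 109 and 94, and Nr4a3 with 140 and 136. These are 3′ counts, in which a molecule counts 1 time whatever its length. The members divided between cell classes: monocytes held 60.8% of the female and 69.4% of the male Nr4a1 UMIs while being 8.07% and 7.47% of the cells. NK cells held 70.6% and 89.4% of the Nr4a2 UMIs and 65.0% and 78.7% of the Nr4a3 UMIs while being 23.1% and 15.1% of the cells.

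**Figure D1:**
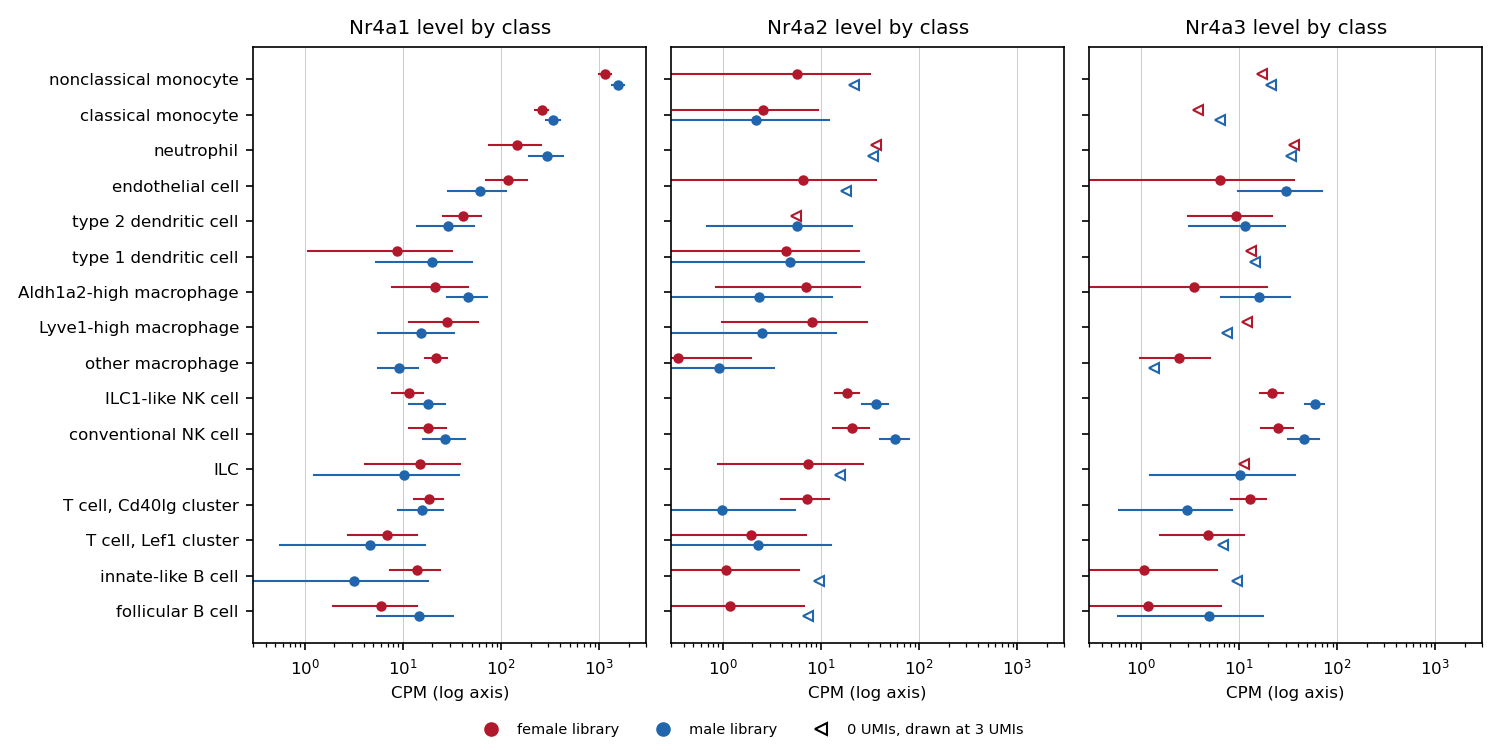
Level of each member in 16 cell classes, as CPM of the UMIs of the class on a log axis, with points for the female (red) and male (blue) library and lines for 95% Poisson intervals. Open triangles mark classes with 0 UMIs, drawn at the level of 3 UMIs. Nr4a1 was at 1137 and 1561 CPM in nonclassical monocytes, and Nr4a2 and Nr4a3 had their points above 18 CPM in both libraries in the NK clusters.

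Nr4a1 was higher in nonclassical monocytes than in every other class, in both libraries. In these cells it reached 1137 CPM in the female library (95% interval 985 to 1306, from 199 UMIs) and 1561 CPM in the male library (1360 to 1782, 218 UMIs). In classical monocytes, the Ly6C-high cells that give rise to them, it was at 259 CPM (224 to 297, 200 UMIs) and 340 CPM (289 to 398, 157 UMIs). The nonclassical level was 4.39 times the classical level in the female library (3.59 to 5.37) and 4.58 times in the male library (3.72 to 5.67). Of the genes with at least 50 UMIs in the pair of clusters, 8.89% in the female and 11.7% in the male library were at least 2-fold higher in the nonclassical cluster, and 8.31% and 8.65% at least 2-fold lower. Nr4a1 stood among the 1.13% and 1.35% of genes with the highest ratio.

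The difference was also there without dividing by the total of each class, which matters because nonclassical monocytes were shallow (median 1441 and 2018 UMIs per cell, against 3489 and 3783 in classical monocytes). A nonclassical monocyte held on average 2.12 female and 3.21 male Nr4a1 UMIs, and a classical monocyte 0.980 and 1.37. At least 1 Nr4a1 UMI was found in 74.5% and 82.4% of nonclassical and in 42.6% and 53.0% of classical monocytes. After each cell was thinned to 1000 UMIs the shares were 55.2% and 71.2% against 24.2% and 25.2%. 3 or more Nr4a1 UMIs were found in 31 of 94 female and 33 of 68 male nonclassical monocytes and in 27 of 204 and 23 of 115 classical ones, and the highest cells held 12 and 15 UMIs. For comparison, in B cells 2.32% and 1.49% of cells held a UMI, at a median of 2224 and 1779 UMIs per cell.

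Across monocytes binned by their markers, the level rose from bin to bin. Monocytes were placed by the share of nonclassical genes (Ace, Treml4, Cd300e and others of the list) among their monocyte marker UMIs, whatever their cluster. From a share of up to 10% through 10 to 50% and 50 to 90% to above 90%, Nr4a1 was at 231, 584, 895 and 1136 CPM in 168, 47, 32 and 47 female cells. The same bins held 314, 582, 1261 and 1380 CPM in 82, 32, 26 and 38 male cells. The lowest bin lay below the other 3 in both libraries, with intervals that did not overlap. The top 2 bins overlapped in both libraries, and the middle 2 bins in the female library. The bins followed the clusters, with 3, 16, 25 and 46 female and 2, 7, 18 and 38 male cells of the nonclassical cluster. Whether single cells held levels between those of the clusters was not tested.

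**Figure D2:**
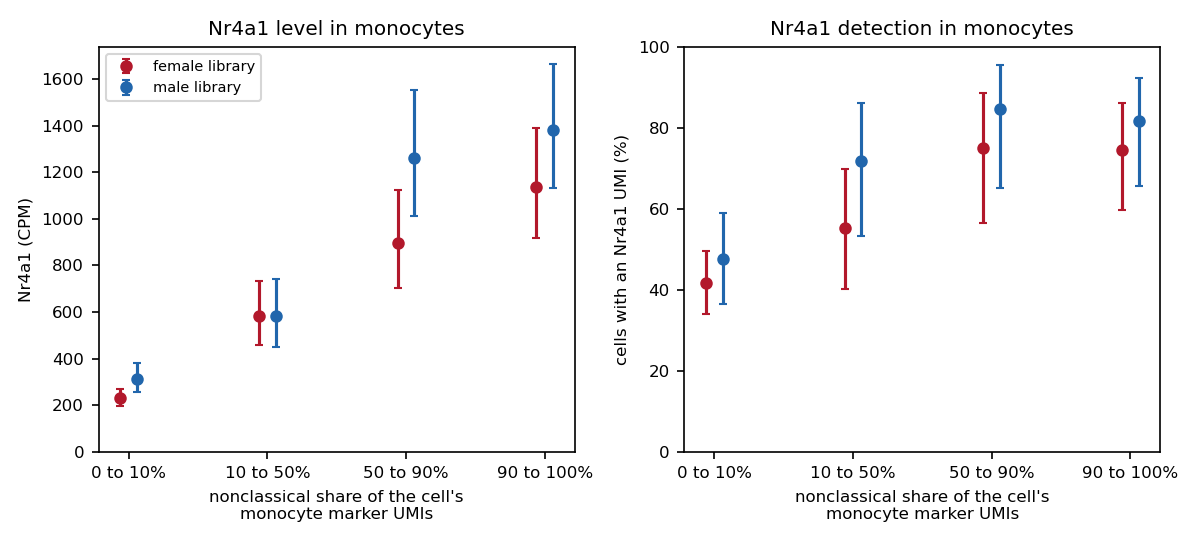
Nr4a1 in monocytes binned by the nonclassical share of their marker UMIs, as CPM (left) and as the percent of cells with an Nr4a1 UMI (right), for the female (red) and male (blue) library, with 95% counting intervals. The level is 231 and 314 CPM in the lowest bin and 1136 and 1380 CPM in the highest.

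Neutrophils came next to classical monocytes, with 145 CPM in the female library (74.8 to 253, 12 UMIs) and 292 CPM in the male library (191 to 428, 26 UMIs), and their intervals overlapped those of classical monocytes in both. The ratio of classical monocytes to neutrophils was 1.79 (1.0 to 3.52) and 1.16 (0.766 to 1.84). Endothelial cells, which a CD45 sort should hold few of, were at 117 CPM (69.4 to 185, 18 UMIs) and 60.5 CPM (29.0 to 111, 10 UMIs). Their Nr4a1 rested on few cells, with 94.4% and 80.0% of it in 5 cells. The genes of adrenal endocrine cells (15 genes such as Star and Cyp21a1) summed to 2289 and 1747 CPM there, against 400 and 394 CPM in nonclassical monocytes and 62.0 and 51.4 CPM in NK cells, and the part of such foreign RNA in the endothelial value was not tested.

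Type 2 dendritic cells were at 40.7 CPM (25.5 to 61.7) and 28.8 CPM (13.8 to 52.9), next in the female order, while in the male library Aldh1a2-high macrophages stood between them and endothelial cells, with intervals that overlapped both. All remaining classes lay below 50 CPM with intervals that overlapped many of their neighbours. T cells were at 14.5 and 12.3 CPM, B cells at 10.1 and 9.71 CPM, innate lymphoid cells (ILCs) at 14.9 and 10.3 CPM on 4 and 2 UMIs, and NK cells at 13.4 and 21.1 CPM. Type 1 dendritic cells were at 8.80 and 19.6 CPM on 2 and 4 UMIs. The order among these lymphoid and dendritic classes was not detectable at this depth.

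Macrophages, the class the study set out to describe, carried little Nr4a1. As a whole they were at 22.1 CPM in the female library (17.4 to 27.7, 75 UMIs in 822 cells) and 15.3 CPM in the male library (11.2 to 20.4, 46 UMIs in 796 cells), with a UMI in 6.20% and 3.77% of cells. Classical monocytes exceeded them 11.7-fold (8.94 to 15.5) and 22.2-fold (15.9 to 31.6), where 6.34% and 6.56% of genes were at least 2-fold higher and 13.9% and 15.9% lower. Nonclassical monocytes exceeded them 51.5-fold (39.3 to 68.0) and 102-fold (73.8 to 143), where 13.3% and 14.8% of genes were at least 2-fold higher. What stray monocyte RNA would carry was worked out as if no class made the nonclassical genes itself. The nonclassical genes Ace, Treml4, Cd300e and Eno3 stood in macrophages at 1.59% and 0.822% of their nonclassical level, and Nr4a1 at those same shares would be 18.1 and 12.8 CPM. In T cells these genes stood at 0.183% and 0.360%, which would carry 2.08 and 5.61 CPM of the 14.5 and 12.3 CPM measured. Their shares were 0.482% and 0.270% in NK cells, 0.273% and 0.146% in B cells and 0% in ILCs of both libraries, all below the macrophage shares. In classical monocytes these genes stood at 8.07% and 12.3%, which would carry 91.8 and 192 CPM of the 259 and 340 CPM measured. In endothelial cells they stood at 5.12% and 1.90%, which would carry 58.2 and 29.7 CPM of the 117 and 60.5 CPM measured. How much of these genes each class makes itself was not tested. The part of stray RNA in any of these values was not tested further.

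Among macrophage subsets, Nr4a1 in the female library was at 21.7 CPM in other macrophages (16.6 to 27.8, 62 UMIs), 28.3 CPM in Lyve1-high (11.4 to 58.4, 7 UMIs) and 21.0 CPM in Aldh1a2-high macrophages (7.71 to 45.7, 6 UMIs), and all 3 intervals overlapped. In the male library the values were 9.18 CPM (5.61 to 14.2, 20 UMIs), 15.3 CPM (5.60 to 33.2, 6 UMIs) and 46.4 CPM (28.3 to 71.6, 20 UMIs). The male Aldh1a2-high subset, which carries the retinoic acid enzyme Aldh1a2 and the alternative-activation gene Retnla, thus stood 5.05 times above other macrophages (2.58 to 9.89), with 75% of its UMIs in 5 cells. The female ratio was 0.969 (0.343 to 2.23).

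Other macrophages were also divided by their MHC class II level (Cd74, H2-Aa, H2-Ab1 and H2-Eb1), with 10 or fewer of these UMIs per 1000 counted as low. In the female library Nr4a1 was at 24.2 CPM in 169 low cells and 20.3 CPM in 457 high cells, a ratio of 1.19 (0.654 to 2.09). In the male library only 18 cells were low. They held 8 Nr4a1 UMIs in 6 cells, 110 CPM (47.3 to 216), against 11 UMIs in 503 high cells, 5.23 CPM (2.61 to 9.36), a ratio of 20.9 (7.31 to 57.1). The boundary had 4 male and 22 female cells within 2 UMIs of it.

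Nr4a2 and Nr4a3 were low or at 0 in the cells where Nr4a1 was high. Nr4a3 had 0 UMIs in 298 female and 183 male monocytes, with intervals that reached 3.89 and 6.14 CPM. It also had 0 UMIs in neutrophils, with intervals that reached 44.5 and 41.5 CPM. Nr4a2 had 3 UMIs in female and 1 UMI in male monocytes (3.16 CPM, 0.653 to 9.25, and 1.66 CPM, 0.0421 to 9.27). Macrophages were at 1.47 and 1.33 CPM of Nr4a2 and 2.36 and 2.33 CPM of Nr4a3.

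In NK cells, killer lymphocytes without an antigen receptor, the order of the members by CPM was turned around. Nr4a2 was at 19.2 CPM in the female library (15.1 to 24.0, 77 UMIs in 41 of 854 cells) and 43.2 CPM in the male library (34.5 to 53.5, 84 UMIs in 31 of 369 cells). Nr4a3 was at 22.7 CPM (18.2 to 27.8, 91 UMIs in 42 cells) and 55.0 CPM (45.1 to 66.5, 107 UMIs in 23 cells). The Nr4a1 level was 13.4 CPM (10.1 to 17.5) in female and 21.1 CPM (15.1 to 28.6) in male NK cells. In the male library both smaller members lay above Nr4a1 with intervals that did not overlap, and in the female library this held for Nr4a3 alone. The shares of cells with a UMI did not separate the members. Nr4a1 was found in 4.33% of female (3.07 to 5.92) and 4.34% of male NK cells (2.50 to 6.95). For Nr4a2 the shares were 4.80% (3.47 to 6.46) and 8.40% (5.78 to 11.7). For Nr4a3 they were 4.92% (3.57 to 6.59) and 6.23% (3.99 to 9.21), and all these intervals overlapped within each library.

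Relative to T cells, the NK level was 3.57 times as high for Nr4a2 in the female library (2.06 to 6.55) and 31.5 times in the male library (8.47 to 265). For Nr4a3 the ratios were 2.25 (1.47 to 3.52) and 26.8 (8.92 to 132). The male values rest on 2 and 3 UMIs in T cells, and 6.13% of genes in the female and 7.82% in the male library were at least 2-fold higher in NK cells. Relative to macrophages the ratios were 13 and 32.4 for Nr4a2 and 9.61 and 23.6 for Nr4a3, where 15.3% and 16.3% of genes were at least 2-fold higher. Nr4a1 did not share this order, with NK to T ratios of 0.930 (0.612 to 1.42) and 1.71 (0.961 to 3.16).

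Both NK clusters carried Nr4a2 and Nr4a3. ILC1-like NK cells were at 18.5 and 36.0 CPM of Nr4a2 and 21.7 and 59.4 CPM of Nr4a3, and conventional NK cells at 20.7 and 57.1 CPM and at 24.8 and 46.6 CPM. The ratio of ILC1-like to conventional cells was 0.894 (0.545 to 1.5) and 0.630 (0.401 to 0.994) for Nr4a2, and 0.874 (0.556 to 1.40) and 1.28 (0.829 to 2.00) for Nr4a3. For 3 of these 4 ratios the interval included 1.

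These levels came from a minority of NK cells. Nr4a2 was detected in 4.80% of the female NK cells and 8.40% of the male ones, and Nr4a3 in 4.92% and 6.23%. Of B cells, which stood at a lower depth, 2 of 517 female and 0 of 269 male cells held Nr4a2 and 2 in each library Nr4a3. Thinned to 1000 UMIs, the shares were 0.945% and 3.01% for Nr4a2 and 1.65% and 2.46% for Nr4a3. The 5 cells with the most UMIs held 37.7% of the female and 59.5% of the male Nr4a2 UMIs, and 44.0% and 69.2% of the Nr4a3 UMIs. The highest cell, a male ILC1-like NK cell of 5962 UMIs, held 35 Nr4a3, 17 Nr4a2 and 3 Nr4a1 UMIs. The next held 22 Nr4a3, 3 Nr4a2 and 9 Nr4a1 UMIs among 7593, with 186 UMIs of the chemokine Xcl1. In the female library the cell with the most Nr4a3 held 12 UMIs, with 15 of Egr3 and 123 of Xcl1. The 5 highest cells of each library held 0 UMIs of the B cell gene Cd79a and of the macrophage gene C1qa, and 1 of these 10 cells held 1 UMI of the T cell gene Cd3e.

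The members were found in the same NK cells more often than independent detection would give. Nr4a2 and Nr4a3 were seen together in 11 female and 8 male cells, where independence gives 2.02 and 1.93. Nr4a1 and Nr4a2 met in 11 and 5 cells (1.78 and 1.34 if independent), and Nr4a1 and Nr4a3 in 11 and 6 cells (1.82 and 0.997). Any member was detected in 93 female and 54 male NK cells, and all 3 in 6 and 3 cells. Detection follows depth, and after thinning to 1000 UMIs Nr4a2 and Nr4a3 still met in 1 female and 5 male cells, where independence gives 0.132 and 0.270. Nr4a1 was at 67.8 CPM in the 72 female NK cells with an Nr4a2 or Nr4a3 UMI and 7.71 CPM in the other 782. In the male library it was at 119 CPM in 46 such cells and 7.06 CPM in the other 323.

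NK cells with an Nr4a2 or Nr4a3 UMI also carried more of a number of early response and antigen receptor response genes. Their median depth was 4436 against 4120 UMIs in the female and 5172.5 against 4853 in the male library. Of the early response genes with at least 20 UMIs, 9 of 20 female genes (Fos, Fosl2, Junb, Egr1, Egr2, Egr3, Zfp36, Dusp1 and Dusp5) and 6 of 17 male genes (Fosb, Fosl2, Egr1, Egr3, Dusp1 and Dusp5) were at least 2-fold higher, and 0 were 2-fold lower. Over all genes, 3.24% and 3.91% were at least 2-fold higher, and 10.8% and 9.17% at least 2-fold lower. Egr3, an early growth response factor downstream of calcium signals, was at 211 against 9.91 CPM in the female library, a ratio of 21.3 (14.2 to 32.5), and at 155 against 18.2 CPM in the male library, 8.52 (5.16 to 14.2). Its relative Egr1 was at 198 against 30.3 CPM and at 143 against 31.8 CPM.

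Of the antigen receptor response genes, 4 of 13 in the female library (Rel, Tnfaip3, Nfkbid and Ifng) and 5 of 11 in the male library (the same 4 genes and Myc) were at least 2-fold higher, and 1 was lower in each. Ifng, the main NK cytokine, was at 211 against 60.0 CPM (ratio 3.52, 2.69 to 4.56) and 217 against 101 CPM (2.15, 1.55 to 2.95). Rel, an NF-kB subunit, was at 162 against 52.0 CPM and 209 against 53.5 CPM. Of the cAMP and CREB response genes, Crem and Sik1 in both libraries and Rgs2 in the male library passed 2-fold, out of 8 measured in each. Crem, a repressor that CREB induces, was at 54.7 against 19.5 CPM and 85.9 against 17.6 CPM. Of the factors upstream of the family (Creb1, Mef2 and Elk factors and others), 0 of 10 and 1 of 9 were 2-fold higher, and of 6 heat shock genes 0 in either library. Other lists did not go the same way. Of the T cell dysfunction and regulatory genes, 3 of 6 in the female library were at least 2-fold lower (median ratio 0.495) and 0 of 4 in the male library (0.630). MHC class II genes, which macrophages and B cells carry, were at least 2-fold lower for 4 of 4 in the female library and higher for 2 of 4 (H2-Ab1 and Cd74) in the male library, and the part of stray RNA in this was not tested.

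**Figure D3:**
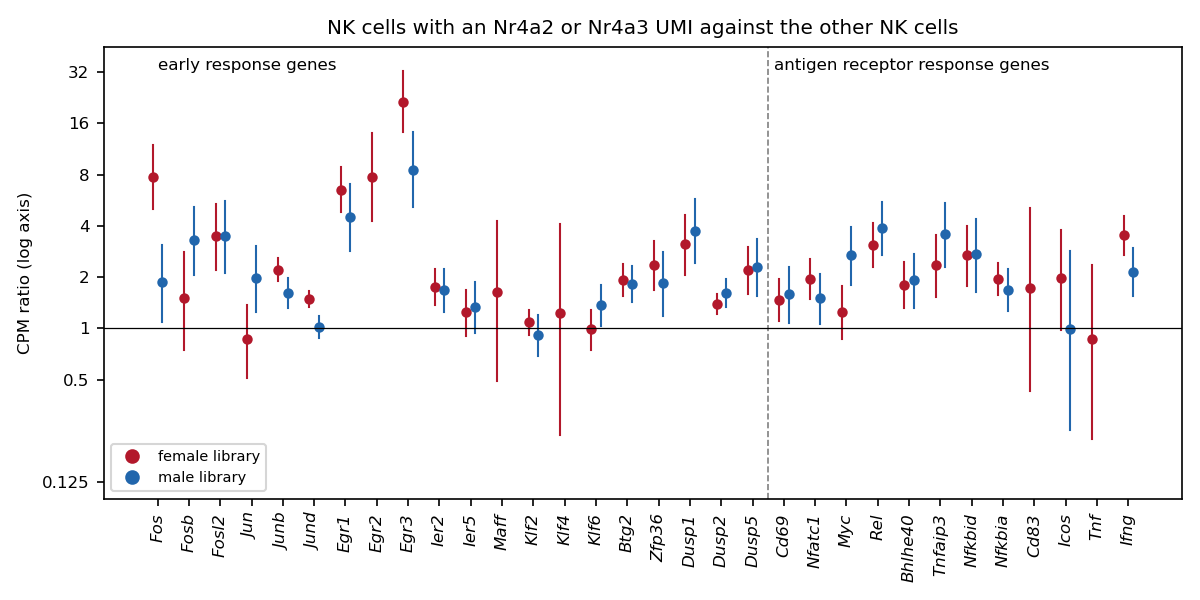
Ratio of CPM (log axis) between NK cells with an Nr4a2 or Nr4a3 UMI and the other NK cells, for the early response genes (left of the dashed line) and antigen receptor response genes (right) with at least 20 UMIs, in the female (red) and male (blue) library with 95% counting intervals. Genes at 0 UMIs in the cells with a UMI, Il2 in the female and Cd83 in the male library, are not drawn. Egr3 has the highest ratio in both libraries, 21.3 and 8.52.

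In T cells the members were low, and Nr4a3 differed between the libraries. The cluster led by Trac, Cd3e and Cd40lg held 25 Nr4a3 UMIs in the female library, 12.9 CPM (8.32 to 19.0) in 16 of 422 cells, and 3 UMIs in the male library, 2.93 CPM (0.604 to 8.56) in 247 cells. Nr4a2 in this cluster had 14 UMIs (7.20 CPM) and 1 UMI (0.976 CPM). In the cluster led by Dapl1, Cd8b1 and Lef1 Nr4a3 had 5 and 0 UMIs. The NK genes stood in T cells at 6.27% and 5.12% of their NK level, which would carry 1.42 and 2.82 CPM of Nr4a3 and 1.2 and 2.21 CPM of Nr4a2. The male T cell levels of 2.05 and 1.37 CPM lay below these values and the female levels of 10.1 and 5.38 CPM above them. How much of these NK genes T cells make themselves was not tested, and ratios to male T cells rest on these low values. Among female T cells, Nr4a3 had 12 UMIs in 204 cells with a CD8 gene UMI and 4 in 79 cells with Cd4, 12.2 CPM in each. Among male T cells it had 0 in both gates. T cells in no gate held 12 UMIs in 359 female and 3 in 200 male cells.

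Nr4a3 had 5 female and 4 male UMIs in type 2 dendritic cells (9.26 CPM, 3.01 to 21.6, and 11.5 CPM, 3.13 to 29.5), each in 2 cells. In male Aldh1a2-high macrophages it had 7 UMIs in 3 cells, 5 of them in 1 cell, 16.2 CPM (6.53 to 33.4). Male other macrophages had 0, so that the level was at least 11.8-fold higher in the Aldh1a2-high subset when 3 UMIs are set for the 0. This value rests mostly on that 1 cell. In female Aldh1a2-high macrophages it had 1 UMI. Lyve1-high macrophages had 0 Nr4a3 UMIs in both libraries and 2 and 1 of Nr4a2. ILCs held 2 female and 0 male UMIs of Nr4a2 and 0 and 2 of Nr4a3. Endothelial cells held 1 and 0 UMIs of Nr4a2 and 1 and 5 of Nr4a3, the 5 all in 1 male cell. 

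Between the sexes, Nr4a1 was lower in the female monocytes and higher in the female other macrophages. In nonclassical monocytes the female to male ratio was 0.729 (0.598 to 0.887), where 1.16% of genes were at least 2-fold lower, and in classical monocytes 0.760 (0.614 to 0.943), where 0.873% were. Neither ratio passed 2-fold, and 11.6% and 13.4% of genes had a ratio as low or lower. With the 1.2% mitochondrial ceiling, which left 18 and 10 nonclassical cells, the nonclassical ratio was 1.05. The female cells were shallower in both clusters, by the medians given above. Neutrophils, at 0.496 (0.228 to 1.02, where 1.89% of genes were at least 2-fold lower), had a ratio on the same side. In NK cells the Nr4a1 ratio was 0.638 (0.417 to 0.981), and 1.12 without the 5 highest cells of each library, a larger part of the male than of the female NK cells. In other macrophages the ratio was 2.36 (1.41 to 4.12), past 2-fold with 1.32% of genes, and 0.744% of genes had a ratio as high or higher. Its 3 clusters gave 2.08 (1.13 to 4.02), 3.00 (0.570 to 29.6) and 3.00 (0.810 to 16.6). For all macrophages it was 1.44 (0.986 to 2.13), and T cells were at 1.17 (0.662 to 2.16). The levels in other macrophages were 21.7 and 9.18 CPM. The values worked out above for stray RNA in all macrophages were 18.1 and 12.8 CPM, as if macrophages made none of the nonclassical genes. Of these UMIs, 5 cells held 37.1% in the female and 40.0% in the male library. MHC class II high cells gave 20.3 and 5.23 CPM, while low cells went the other way, at 24.2 and 110 CPM on 18 male cells. The part of stray RNA in the ratio was not tested.

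In NK cells Nr4a2 and Nr4a3 were lower in the female library, with ratios of 0.444 (0.321 to 0.612) and 0.412 (0.308 to 0.550). At least 2-fold lower were 0.444% of all genes in NK cells, and only 0.173% and 0.0987% of genes had a ratio as low as these. Both clusters showed it, at 0.515 (0.339 to 0.783) and 0.362 (0.210 to 0.616) for Nr4a2 and 0.365 (0.257 to 0.519) and 0.533 (0.312 to 0.911) for Nr4a3, in ILC1-like and conventional cells, where 0.781% and 0.671% of genes were at least 2-fold lower. The few highest cells weighed on it. Without the 5 cells with the most UMIs of the gene in each library the ratios were 0.681 and 0.743. These 5 cells are a larger part of the 369 male than of the 854 female NK cells, so part of this shift is built in. In T cells the Nr4a3 ratio was on the other side, at 4.91 (1.53 to 25.1) on 30 and 3 UMIs, where 0.5% of genes were at least 2-fold higher. In monocytes and NK cells the early response genes were on the female-lower side as well. The median female to male ratio of the list was 0.724 in classical monocytes, 0.927 in nonclassical monocytes and 0.829 in NK cells, against 1.0, 1.0 and 0.933 over all genes, so that Nr4a1 in classical monocytes (0.760) was no lower than this list. In nonclassical monocytes Nr4a1 (0.729) was lower than the list. Past 2-fold, in NK cells Fos and Fosb were lower in the female library, 2 of 19 measured, in nonclassical monocytes Ier5, 1 of 12, and in classical monocytes Fosb, 1 of 16, and 0 were higher in any of these classes.

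**Figure D4:**
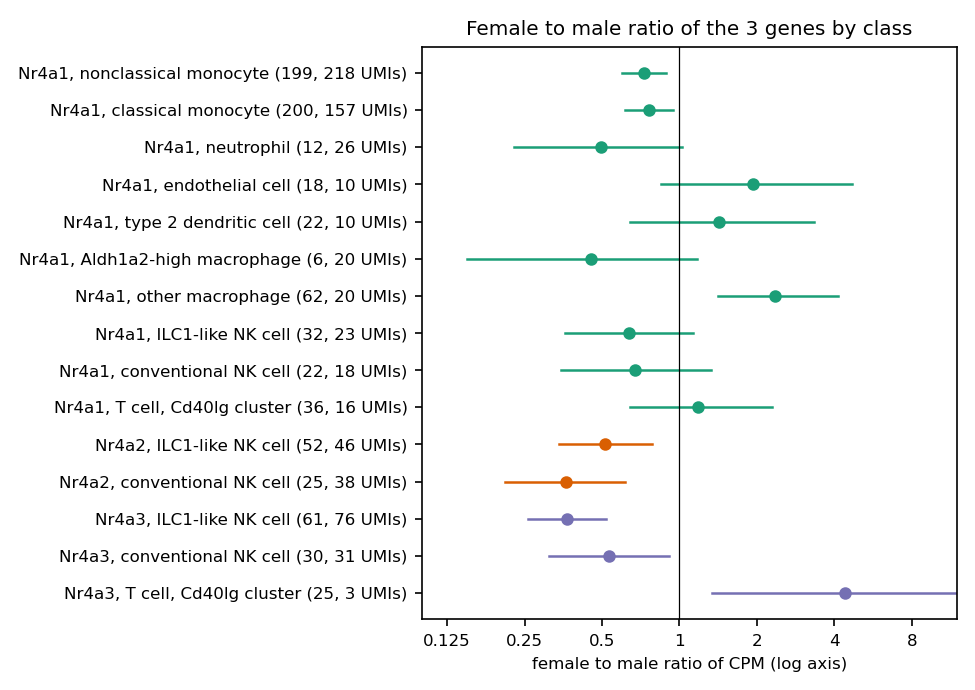
Female to male ratio of the CPM of each member (log axis) in the classes with at least 20 UMIs over both libraries, with 95% counting intervals and the female and male UMIs in brackets. The line for Nr4a3 in T cells runs past the axis to 22.7. The Nr4a2 and Nr4a3 ratios in the NK clusters lie between 0.362 and 0.533, and the Nr4a1 ratio in other macrophages at 2.36.

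The other early response genes were not all ordered across the classes as Nr4a1 was. Between nonclassical and classical monocytes, where Nr4a1 was over 4-fold higher, 3 of 17 measured early response genes in the female library were at least 2-fold higher (Klf4, Dusp2 and Dusp5) and 2 of 15 in the male library (Klf4 and Dusp5), with Fos and Fosb lower in the latter. Of all genes, 8.89% and 11.7% were at least 2-fold higher, and 8.31% and 8.65% lower. Fos, the AP-1 subunit, was at 474 and 358 CPM in nonclassical and 856 and 1414 CPM in classical monocytes. Junb was at 709 and 1059 against 424 and 637 CPM, and Jund at 509 and 472 against 389 and 555 CPM. Klf2, a factor of quiescent circulating leukocytes, was at 1154 and 1417 against 603 and 720 CPM. Neutrophils had the most of the list, summing to 37719 and 47105 CPM against 7068 and 8125 CPM in nonclassical monocytes, 5179 and 6740 CPM in classical monocytes and 2767 and 3037 CPM in NK cells, while their Nr4a1 was below that of nonclassical monocytes (7.85-fold, 4.40 to 15.5, and 5.34-fold, 3.55 to 8.36). In the Aldh1a2-high macrophages the list summed to 6108 and 7403 CPM and in other macrophages to 1913 and 1845 CPM. Between classical monocytes and macrophages 9 of 18 and 9 of 19 early response genes were at least 2-fold higher, beside 6.34% and 6.56% of all genes. Ier3 in both libraries and Egr2 in the male library were lower. Between nonclassical monocytes and macrophages 10 of 19 and 9 of 20 were at least 2-fold higher, and 1 and 4 lower. Of all genes, 13.3% and 14.8% were at least 2-fold higher there. Between NK and T cells 6 of 18 (Fosl2, Egr1, Egr2, Egr3, Dusp2 and Dusp5) and 3 of 17 (Fosl2, Egr1 and Egr3) were at least 2-fold higher. Of all genes, 6.13% and 7.82% were. Heat shock genes summed to 2154 and 2584 CPM in nonclassical monocytes and 531 and 450 CPM in neutrophils. Early response genes are also known to be switched on by warm enzymatic digestion. Its part in any level here was not tested, as no undigested sample was analysed.

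Monocytes with an Nr4a1 UMI were also set against the other monocytes. This split follows the mix of the clusters, since cells with a UMI were 70 of 94 nonclassical and 87 of 204 classical cells in the female library and 56 of 68 and 61 of 115 in the male library. Past 2-fold higher were 4 of 18 early response genes in the female library (Klf2, Klf4, Btg2 and Zfp36) and 3 of 18 in the male library (Klf4, Dusp1 and Dusp5), beside 6.09% and 8.90% of all genes. Klf4, a factor of monocyte differentiation, was the gene found in both, and it was also higher in the nonclassical cluster (629 and 601 CPM, against 202 and 197 CPM in the classical cluster). The split within a cluster was not tested.

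Factors upstream of the family and its partners were compared next. Cebpb, a myeloid factor also needed for nonclassical monocytes, was at 4165 and 4567 CPM in nonclassical and 2005 and 1854 CPM in classical monocytes. Mef2c, a calcium-responsive factor, was at 331 and 387 against 147 and 163 CPM, and Mef2a at 343 and 515 against 207 and 221 CPM. Of the measured upstream factors 2 of 6 (Mef2c and Cebpb) and 3 of 3 (these and Mef2a) were at least 2-fold higher in the nonclassical cluster, and 0 lower. Of all genes, 8.89% and 11.7% were at least 2-fold higher. The list named 10 factors, and the rest had too few UMIs to be measured. Nfatc3 was at 97.1 and 157 against 63.4 and 47.7 CPM. Of the partners and corepressors, Ncor1 was at 194 and 172 CPM in nonclassical monocytes, Rcor1 at 5.71 and 28.6 CPM and Kdm1a at 51.4 and 71.6 CPM. Of the 11 cAMP and CREB response genes, only 2 in the female and 1 in the male library had enough UMIs to be measured between the monocyte clusters. Of these, 0 passed 2-fold. By the values that follow, Pde4b in both libraries and Sik1 in the male library were more than 2-fold higher in nonclassical monocytes, on too few UMIs to be counted. Sik1 was at 109 and 85.9 CPM in nonclassical and 62.1 and 30.4 CPM in classical monocytes, Pde4b at 68.6 and 107 against 29.8 and 34.7 CPM, Rgs2 at 623 and 630 against 446 and 516 CPM, and Crtc3 at 40.0 and 21.5 against 28.5 and 19.5 CPM.

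Over 26 profiles (13 classes in 2 libraries) the Spearman correlation on log2(CPM + 10) was 0.20 between Nr4a1 and Nr4a2, 0.01 between Nr4a1 and Nr4a3 and 0.35 between Nr4a2 and Nr4a3. The Pearson correlation of the same values was -0.08, -0.22 and 0.78, so that how alike Nr4a2 and Nr4a3 look depends on the measure. The profiles share their libraries and clusters, and these are descriptions. The 5 genes most like Nr4a1 were Arpc5 (0.89), Fgr (0.88), Pi16 (0.88), Capzb (0.87) and Arpc2 (0.86), which include subunits of the actin-branching Arp2/3 complex and a myeloid Src-family kinase. Most like Nr4a2 were the chemokine Xcl1 (0.85), Usp48 (0.77), Crim1 (0.75), the NK receptor Klrc1 (0.74) and Atxn2l (0.73). Most like Nr4a3 were Dusp19 (0.82), the NK receptor Klri2 (0.77), Mdp1 (0.76), F2rl2 (0.76) and Exosc1 (0.75).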

How the data were processed

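The authors deposited raw UMI counts per gene and cell barcode, made with Cell Ranger on mm10 per the labels and with no normalization. Members and gene lists were chosen with earlier results of these data known. Barcodes with at least 200 genes and at most 15% mitochondrial UMIs were kept. The study states a ceiling of 1.2%, which 333 female and 366 male barcodes pass, far fewer cells than the study describes keeping. The stated value may thus be on another scale, and it was used only as an alternative. Doublets were scored with Scrublet in scanpy 1.11.5. Its own threshold marked 2 and 10 barcodes, so the highest scores were removed at 0.8% per 1000 barcodes (124 and 52 barcodes). The libraries shared 2 barcode sequences.

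Clustering used R 4.3.3 with Seurat 5.3.0 and sctransform 0.4.2, on both libraries integrated (2000 features, 20 components, resolution 1) into 22 clusters, with the members, the lists and sex-linked genes (117 genes) held out of the features. Marker lists named the clusters by a scoring rule chosen with the clusters in view. The best-scoring list gave the name if 3 of its markers were 2-fold up and detected in 20% or more of the cluster and 75% of its cells held a marker. A marker of the list also had to stand among the 10 leading genes, and no other list could have more markers there.

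The deposited counts were summed per class and library and divided by the class total (CPM), with exact Poisson intervals for levels, Clopper-Pearson intervals for shares and conditional binomial intervals for ratios. The share of genes past 2-fold was taken over genes with at least 50 UMIs in both classes together (20 within a class). The computations were tested on simulated data. The text gives the 3 members by class, counts for the lists where they bear on a result and their 4 genes with the most UMIs, the genes that passed 2-fold, and for each member the 5 genes with the most similar profile among those with at least 200 UMIs. A gene of the list of partners and corepressors is not reported here. Egr3, Ifng, Rel, Crem and the highest NK cells were named after their values had been seen. Alternatives were another mitochondrial ceiling, all doublets kept, finer clusters, cells gated one by one, other denominators, other thinning depths and leaving out the highest cells.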

Additional observations from a re-analysis of the deposited data

Results flagged for a closer look

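Several ratios between the female and male library ran in opposite directions in different classes, and the differences between the ratios were not tested. For Nr4a1 the ratio was 2.36 in other macrophages against 0.729 in nonclassical and 0.760 in classical monocytes. For Nr4a2 it was 7.37 (1.12 to 312, on 14 and 1 UMIs) in the T cell cluster with Cd40lg, against 0.515 in ILC1-like and 0.362 in conventional NK cells. For Nr4a3 it was 4.39 (1.34 to 22.7) in that T cell cluster and at least 1.78 in other macrophages (7 against 0 UMIs, with 3 UMIs set for the 0), against 0.365 and 0.533 in the NK clusters.

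Cells and barcodes outside the comparisons also held the members. Proliferating female cells had 6 Nr4a1 UMIs in 2 cells, and male cells of unnamed clusters had 5 Nr4a3 UMIs in 2 cells. The female barcodes left out for a mitochondrial share above 15% or fewer than 200 genes held 20 Nr4a1 UMIs (119 CPM) in 9 barcodes and 4 Nr4a2 UMIs in 2 barcodes, and the male ones 10 Nr4a1 UMIs (52.3 CPM). The barcodes removed as doublets held 55 Nr4a1 UMIs (53.4 CPM), 5 Nr4a2 and 9 Nr4a3 UMIs in the female library and 15 Nr4a1 UMIs (48.8 CPM) in the male library.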

How the results depend on the processing

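With 1 library per sex, direction and size could be checked against processing but not against animals. No paired analysis was possible because each group holds 1 library. Of 202 values under the alternatives, over 32 results, 155 stayed inside the counting interval of the reported value, 43 moved outside it and 4 turned direction. The female to male ratio of Nr4a1 in other macrophages stayed inside its interval under every alternative run. No alternative removed stray RNA or divided these cells by MHC class II.

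Under the 1.2% mitochondrial ceiling, which left 18 female and 10 male nonclassical monocytes and 12 and 6 NK cells, the female to male ratio became 1.05 for Nr4a1 in nonclassical monocytes and 3.67 for Nr4a2 in NK cells, and the female NK to T ratio 0.753 for Nr4a3 and 9.04 for Nr4a2. In the male library the nonclassical to classical ratio was then 3.52 and the classical to macrophage ratio 13.3. Levels were 30.3 CPM of Nr4a1 in male macrophages, 300 and 404 CPM in classical and 1492 CPM in female nonclassical monocytes, 137 CPM of Nr4a2 in female NK cells and 0 CPM of Nr4a3 in male NK cells. The few cells left are part of this construction, the stated ceiling may be on another scale, and the cause was otherwise not tested.

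Without the 5 highest cells, the female to male ratio in NK cells was 1.12 for Nr4a1, 0.681 for Nr4a2 and 0.743 for Nr4a3. Levels of Nr4a1 were then 15.2 and 9.11 CPM in macrophages, 222 and 281 CPM in classical and 1299 CPM in male nonclassical monocytes. In NK cells Nr4a2 was at 12.1 and 17.7 CPM and Nr4a3 at 12.8 and 17.2 CPM. These levels are lower by construction. The ratios are affected as well, since 5 cells are a larger part of the 369 male than of the 854 female NK cells.

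At resolution 2 the female classical to macrophage ratio was 17.1 and female macrophage Nr4a1 15.3 CPM. At that resolution a cluster of 93 female and 53 male cells that scored best as macrophages, led by Ccl7, Gpx3 and Ccn1, stayed unnamed. It was not counted with macrophages, and its part in the change was not tested. Without mitochondrial and ribosomal genes in the total, Nr4a1 was at 27.9 CPM in female macrophages, 342 and 450 CPM in classical and 1455 and 1932 CPM in nonclassical monocytes, Nr4a2 at 27.3 and 58.6 CPM and Nr4a3 at 32.2 and 74.7 CPM in NK cells. As a mean over cells, male macrophage Nr4a1 was 20.7 CPM and female classical monocyte Nr4a1 299 CPM. With cells gated one by one the latter was 316 CPM. Thinned to 2000 UMIs, Nr4a1 was found in 36.3% and 37.2% of classical and 93.5% and 88.2% of nonclassical monocytes and Nr4a2 in 2.69% of female NK cells. Thinned to 500 the Nr4a1 shares were 9.31% and 13% and 42.5% and 48.5%. By Pearson correlation, 1, 0 and 1 of the 5 genes most like Nr4a1, Nr4a2 and Nr4a3 were shared.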
